A study of Mus musculus with 4 samples.

Results

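Peptide trimming and amidating enzymes finish the work that proprotein convertases begin on pro-opiomelanocortin (POMC), and 10 of their genes were examined in the POMC cells of the mouse pituitary. The genes were Cpe, Cpd, Cpm, Pam, Prcp, Ctsl, Qpct, Ece1, Ece2 and Anpep, taken by gene symbol from a table of 24063 genes. They were chosen as a family of enzymes and not by a rule on their values, though with earlier results of these data known. They held 14 of the 33072 RefSeq transcripts of the table. All 10 genes were present, 9 passed the expression filter (2 or more libraries with 1 FPKM or more once rescaled), and Anpep did not.

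RNA-seq compared corticotropes, sorted from the anterior lobe, with melanotropes, sorted from the intermediate lobe, with 2 libraries of each cell type. Both came from POMC-EGFP mice of strain C57B6 by dissection of the lobes and sorting of the GFP-positive cells. No treatment, age, sex or number of animals is given in the sources used here, so the replicates may share animals or a sort, and p-values measure only the spread between these libraries. The construct of the reporter is not described in the sources used here, and the gate can hold other cells beside those that express Pomc. Ribosomal RNA was removed from total RNA before paired-end sequencing. Among defining markers, all 5 corticotrope markers (Crhr1, Avpr1b, Nr3c1, Neurod1 and Pcsk1) were lower and all 5 melanotrope markers (Pax7, Pcsk2, Drd2, Oacyl and Gulo) were higher in melanotropes. The melanotrope markers summed to 179 to 231 FPKM in the corticotrope libraries and to 1436 to 1579 in the melanotrope libraries. The corticotrope markers summed to 344 to 351 and to 95.3 to 106 FPKM in the same order. Pcsk1 alone held 95.3 and 85.4 FPKM of the sums in melanotrope replicates 1 and 2. From corticotropes to melanotropes, mean Crhr1 went from 132 to 7.58 FPKM and mean Nr3c1 from 51.3 to 2.42. Mean Avpr1b went from 17.4 to 0.302 FPKM and mean Neurod1 from 7.88 to 0.0960. Whether RNA of one cell type was present in samples of the other was not tested. Summed over their lists, genes of other anterior lobe lineages stood at 5660 to 5809 FPKM in the corticotrope libraries against 14.5 to 63.6 in melanotropes. All 12 tested were lower, but 7 of them passed the expression filter only through corticotropes, so that the filter fixed their direction. Endothelial and mural cell markers stood at 16.0 to 23.6 against 6.23 to 8.29 FPKM, with 4 of 6 tested lower, 2 of them passing only through corticotropes. Markers of posterior lobe, glia and stem cells stood at 20.2 to 24.0 against 47.4 to 52.8 FPKM, with 5 of 6 higher, 2 of them passing only through melanotropes. Fibroblast markers stood at 7.49 to 9.24 against 16.6 to 19.3 FPKM, with 3 of 4 higher, 2 of them passing only through melanotropes. Macrophage genes stood at 6.99 to 9.59 against 17.7 to 22.4 FPKM, with 4 of 6 higher, 2 of them passing only through melanotropes, and both haemoglobin genes of the same list were lower (18.0 to 24.0 against 1.54 to 3.41 FPKM), a split made after their values were seen. Of the corticotrope markers 2 also passed only through corticotropes. Leaving out either corticotrope library left 3 of 3 corticotrope markers and 5 of 5 genes of other lineages tested and lower, and without corticotrope replicate 2 the endothelial and mural count was 1 of 3. Leaving out either melanotrope library gave 1 of 2 fibroblast markers, 3 of 4 posterior lobe, glia and stem cell markers and 2 macrophage genes higher. In bulk samples fewer cells of a type and less RNA per cell cannot be told apart, and the part of these cells in the results below was not tested.

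FPKM, a read count scaled for transcript length and library size, were deposited with nearly equal column sums, and the transcripts of Pomc took 27.2% to 27.8% of that sum in corticotropes and 49.7% to 50.9% in melanotropes. Values below, and the marker sums and means above, were therefore rescaled between libraries by a trimmed mean over genes. FPKM means rescaled FPKM unless it is called deposited. Means are given ± SD with n = 2. Fold changes are melanotrope over corticotrope on the log2(FPKM + 1) scale, where the change of a low gene comes out too small, and calls are limma calls at an adjusted p under 0.05. On the deposited scale the median of all genes lay at -0.42 on the log2 scale, where 939 genes were called higher and 8787 lower, against 2442 higher and 2284 lower of 13043 tested after rescaling. The number of reads behind a given FPKM, taken from the spacing of low values, was smallest for corticotrope replicate 1. Relative to it that number was 2.00 for corticotrope replicate 2, 1.90 for melanotrope replicate 1 and 2.04 for melanotrope replicate 2, and total depths are not known.

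Convertases cut a prohormone after pairs of basic residues and leave lysine or arginine at the end of the new peptide. Carboxypeptidases of the Cpe family remove these residues, and Pam turns a terminal glycine, once exposed, into the amide that α-MSH carries. Other members act at the amino end (Qpct, Anpep), cut within small peptides (Ece1, Ece2), or shorten or break down peptides (Prcp, Ctsl). Melanotropes carry the processing of POMC on to α-MSH and β-endorphin, whereas corticotropes mainly release ACTH.

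The upstream sequences of 4 transcript starts are shown: Pam, which rose, Ece1, which fell, and the 2 different starts of the rows deposited as Ece2. A part of these sequences in the results was not tested. Each is the 250 bases before the start, 5′ to 3′ on the gene's strand, from RefSeq on GRCm38.p6, the build of the table. They lie at chr1:98095633-98095882 (Pam, minus strand), chr4:137861987-137862236 (Ece1, plus), chr16:20629601-20629850 (Ece2, plus) and chr16:20611351-20611600 (Eef1akmt4, plus). Capitals mark GGGCGG, the GC box, on either strand.
Pam: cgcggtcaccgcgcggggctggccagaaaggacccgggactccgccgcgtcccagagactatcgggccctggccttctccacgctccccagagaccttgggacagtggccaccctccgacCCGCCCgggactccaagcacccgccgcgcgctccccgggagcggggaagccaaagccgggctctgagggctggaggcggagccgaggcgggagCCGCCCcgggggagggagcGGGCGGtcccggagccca
Ece1: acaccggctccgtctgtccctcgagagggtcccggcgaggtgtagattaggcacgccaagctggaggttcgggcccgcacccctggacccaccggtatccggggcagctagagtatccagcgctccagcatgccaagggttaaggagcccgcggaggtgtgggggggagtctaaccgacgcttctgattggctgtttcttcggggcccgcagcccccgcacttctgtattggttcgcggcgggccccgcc
Ece2: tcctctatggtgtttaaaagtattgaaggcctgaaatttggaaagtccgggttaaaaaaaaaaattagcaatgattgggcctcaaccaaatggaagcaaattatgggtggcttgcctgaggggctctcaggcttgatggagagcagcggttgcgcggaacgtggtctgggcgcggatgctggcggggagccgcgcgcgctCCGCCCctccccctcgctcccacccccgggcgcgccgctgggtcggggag
Eef1akmt4, the upstream start of the rows deposited as Ece2: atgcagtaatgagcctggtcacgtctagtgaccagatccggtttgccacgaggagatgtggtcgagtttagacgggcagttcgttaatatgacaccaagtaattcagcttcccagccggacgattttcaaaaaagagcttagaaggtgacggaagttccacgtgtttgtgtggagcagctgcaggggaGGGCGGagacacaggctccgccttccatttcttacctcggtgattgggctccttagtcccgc

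The Pam window held 3 GC boxes, the Ece2 and Eef1akmt4 windows 1 each and the Ece1 window 0, and 32.7% of 32851 RefSeq windows of this length held at least 1. The G and C content was 76.4% for Pam, 66.8% for Ece1, 59.2% for Ece2 and 52.8% for Eef1akmt4, against a median of 52.4% over all windows. Another 3 motifs were searched on both strands: TAATCC, the core bound by Pitx factors (in 6.25% of windows), TGACGTCA, the cyclic AMP response element (1.55%), and AAAGGTCA, the site of Nr4a monomers (1.34%). None of these letters occurred in the 4 windows, nor in those of Cpd, Cpm and Prcp, the other members whose window ended at the deposited transcript start, so no match overlapped one of another motif. GC boxes did occur in the windows of Cpd, which was not called, of Cpm, which rose, and of Prcp, which fell.

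Of the 9 members tested, Pam, Ece2 and Cpm rose in melanotropes, Ece1, Qpct and Prcp fell, and Cpe, Ctsl and Cpd did not pass the test (limma). The background was 36.2% of all genes called, 18.7% higher and 17.5% lower. The libraries of the cell types did not overlap for any of the 9 members, which held for 70.4% of all genes tested. The median log2 fold change was 0.32 over the 9 members and 0.01 over all genes tested. Prcp passed the expression filter only through the corticotropes, where it is high, so its call is not independent of the filter. On the deposited scale 0 members were called higher and 3 lower, the same Ece1, Qpct and Prcp, and with equal sums of all transcripts other than Pomc, or with the replicate number as a block, 6 were called higher.

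**Figure D1:**
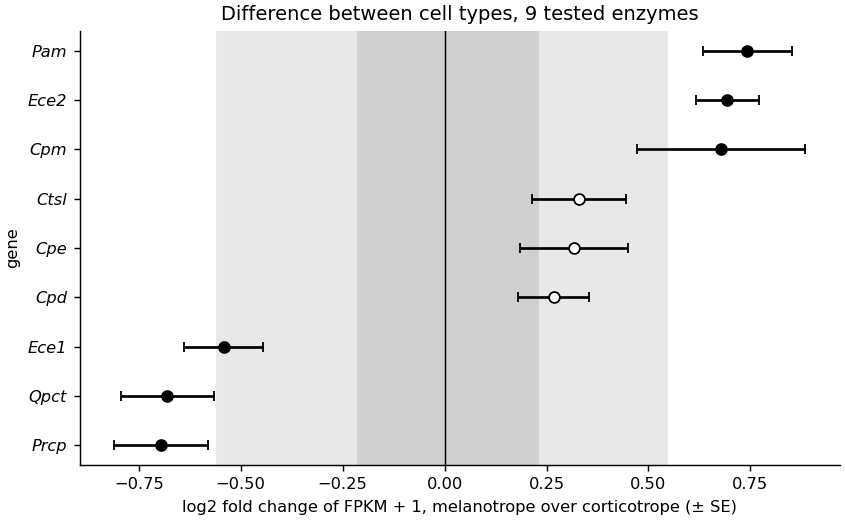
Log2 fold change (x axis, FPKM + 1, melanotrope over corticotrope) of the 9 tested enzymes, with bars of ± 1 standard error, filled where the adjusted p was under 0.05. The dark and light grey bands hold the central 50% and 80% of all genes tested, and the 3 open points (Ctsl, Cpe, Cpd) are below 0 on the deposited scale.

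The carboxypeptidases of basic residues were led by Cpe, the enzyme of the dense core granule. Cpe (chromosome 8, 64592551 to 64693040 on mm10) stood at 402.8 and 461.6 FPKM in corticotrope replicates 1 and 2 and at 525.5 and 549.9 FPKM in melanotrope replicates 1 and 2. Both melanotrope libraries were above both corticotrope libraries. The log2 fold change was 0.32 (SE 0.13) with an adjusted p of 0.115, and without rescaling it was -0.17 (adjusted p = 0.130, and 0.00182 to 0.506 over 15 alternatives). Cpe was above 99.7% of the genes tested in corticotropes and above 99.8% in melanotropes.

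Cpd (chromosome 11, 76777208 to 76847008), a membrane enzyme of the trans-Golgi network with the same specificity, stood at 11.1 and 11.4 FPKM in corticotropes and at 12.97 and 14.5 in melanotropes. The groups were apart. The log2 difference was 0.27 with an SE of 0.09 and an adjusted p of 0.0575, and without rescaling it was -0.19 (adjusted p = 0.0706, and 0.0116 to 0.281 over the alternatives). Cpm (chromosome 10, 117629500 to 117687352), anchored at the cell surface, stood at 3.84 and 5.25 FPKM in corticotropes and at 6.28 and 9.63 in melanotropes. Its melanotrope libraries differed from each other by more than the gap between the cell types. Cpm rose by 0.68 on the log2 scale (adjusted p = 0.0462, SE 0.21). The call was lost without corticotrope replicate 1 (0.48, adjusted p = 0.132), without melanotrope replicate 2 (0.41, 0.138), with a pseudocount of 5 (0.43, 0.0534), with no filter (0.68, 0.117) and without rescaling (0.26, 0.221). Over the 15 alternatives its adjusted p ran from 0.000221 to 0.221.

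A ratio within a library does not change with any rescaling. The Cpe level was 36.3 and 40.6 times that of Cpd in corticotropes and 40.5 and 37.9 times in melanotropes, so the ranges of this ratio overlapped. Cpe was 105 and 87.9 times Cpm in corticotropes and 83.6 and 57.1 times in melanotropes, lower in both melanotrope libraries. Cpe made up 96.4% and 96.5% of the summed FPKM of these 3 carboxypeptidases in corticotropes and 96.5% and 95.8% in melanotropes. With 2 libraries against 2 an exact permutation test of such a ratio cannot pass the threshold, and none was run.

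Pam, the amidating enzyme, joins a copper and ascorbate dependent hydroxylase and a lyase in 1 protein. Pam (chromosome 1, 97821094 to 98095632) stood at 233.5 and 218.5 FPKM in corticotropes and at 386.2 and 371.3 in melanotropes. The replicates lay close together and the cell types far apart. Pam rose by 0.74 on the log2 scale (adjusted p = 0.00347, SE 0.11), a 1.68-fold difference of means. It remained higher on the deposited scale, where the difference of 0.25 did not pass the test (adjusted p = 0.0755, the highest of a range from 1.30e-05), and it was called under the other 14 of 15 alternatives. Its annotated exons share 188 bases with a noncoding transcript, B230216N24Rik, on the same strand. In the authors' deposited table Pam had an FDR of 9.86e-12 and Cpe one of 0.0399. The authors' log2 fold changes were 0.74 for Pam and 0.31 for Cpe, both higher in melanotropes. These were the 2 of 14 transcripts of the members with an FDR under 0.05, against 2.28% of all transcripts.

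The Pam level was 0.580 and 0.473 of the Cpe level in corticotropes and 0.735 and 0.675 of it in melanotropes, higher in both melanotrope libraries whatever the scaling. Pomc itself did not pass the test (log2 fold change 1.36, SE 0.76, adjusted p = 0.213), with 30312 and 31408 FPKM in corticotropes and 74915 and 83913 in melanotropes. Both melanotrope libraries were above both corticotrope libraries (30860 ± 775 FPKM in corticotropes against 79414 ± 6363 in melanotropes). The SE is not the spread of the Pomc libraries alone, because limma draws each variance towards a trend over level. There were 75.2 and 68.0 Pomc FPKM for each Cpe FPKM in corticotropes and 143 and 153 in melanotropes. For each Pam FPKM there were 130 and 144 Pomc FPKM in corticotropes and 194 and 226 in melanotropes, so the ratio of precursor to enzyme was higher in melanotropes for both. These Pomc values are those of its longest transcript, and its most abundant transcript gave higher ratios in all libraries (mean 85.2 against 176 for Cpe and 163 against 250.01 for Pam).

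**Figure D2:**
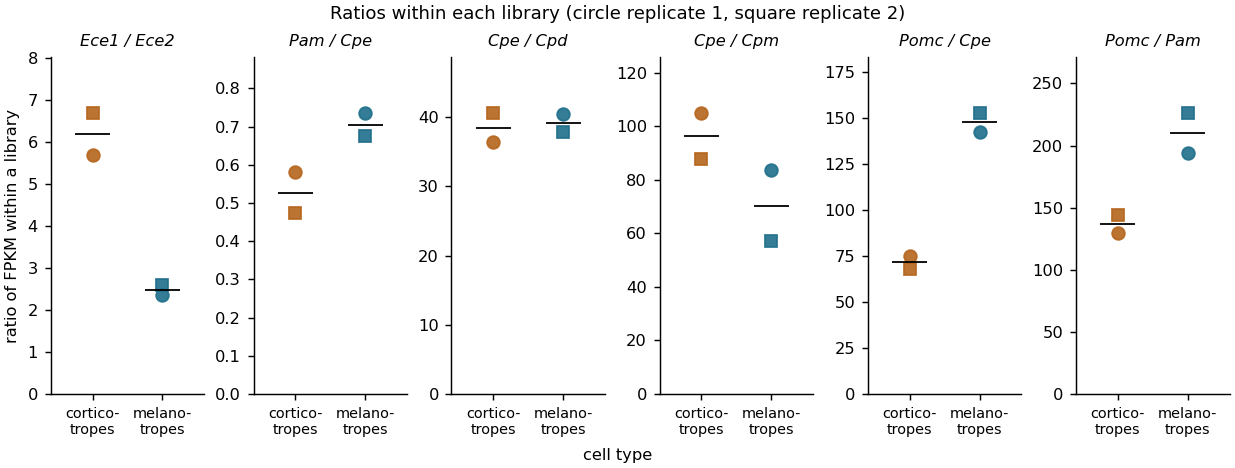
Ratio of FPKM within a library (y axis, from 0) for 6 pairs of genes in corticotropes and melanotropes, with circles for replicate 1, squares for replicate 2 and black lines for the means. Ece1 to Ece2 falls from 5.69 and 6.68 to 2.35 and 2.60, Pam to Cpe and both Pomc ratios are higher in melanotropes, and Cpe to Cpd overlaps.

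The endothelin-converting enzymes, metalloendopeptidases of the neprilysin family, went in opposite directions. Ece1 (chromosome 4, 137862237 to 137965229) stood at 44.0 and 50.2 FPKM in corticotropes and at 30.9 and 33.1 in melanotropes. The corticotrope libraries were both above the melanotrope libraries. Ece1 fell by 0.54 on the log2 scale (adjusted p = 0.00718, SE 0.10), a call that stood in all 15 alternatives (0.000160 to 0.0335). Endothelial cells are known to express Ece1, and the summed endothelial and mural markers were lower in the same melanotrope libraries (6.23 to 8.29 against 16.0 to 23.6 FPKM). Their part in the result was not tested.

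Ece2, whose product works at acid pH in the secretory pathway, stood at 7.74 and 7.51 FPKM in corticotropes and at 13.1 and 12.7 in melanotropes. The groups were far apart beside their spread. Ece2 rose by 0.69 on the log2 scale (adjusted p = 0.00121, SE 0.08). Without rescaling it was still higher but not called (0.25, adjusted p = 0.0610, the highest of a range from 8.06e-05). This value belongs to the longest of 5 transcripts deposited under the symbol (chromosome 16, 20611601 to 20645915). RefSeq now names that transcript of 3414 bases and another of 3328 bases Eef1akmt4-ece2, a readthrough of the upstream methyltransferase gene Eef1akmt4 into Ece2.

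The transcripts that RefSeq names Ece2 start downstream (20629851 to 20645915). The one of 3108 bases stood at 7.56 and 7.55 FPKM in corticotropes and at 13.3 and 13.2 in melanotropes, a 1.76-fold difference of means. Used in place of the longest transcript, it gave a log2 fold change of 0.74 (adjusted p = 8.92e-04). The fifth row, of 979 bases (20611601 to 20618869), is Eef1akmt4 alone, which is no peptidase. It stood at 8.02 and 6.35 FPKM in corticotropes and at 10.3 and 8.27 in melanotropes, a 1.29-fold difference of means, with the lower melanotrope library barely above the higher corticotrope library. Each transcript was counted over its own exons, so reads in shared exons entered several rows, and the rows are not independent. The annotation also places Gm49333 on the same strand with 2937 shared exon bases, so the split between these genes is uncertain.

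**Figure D3:**
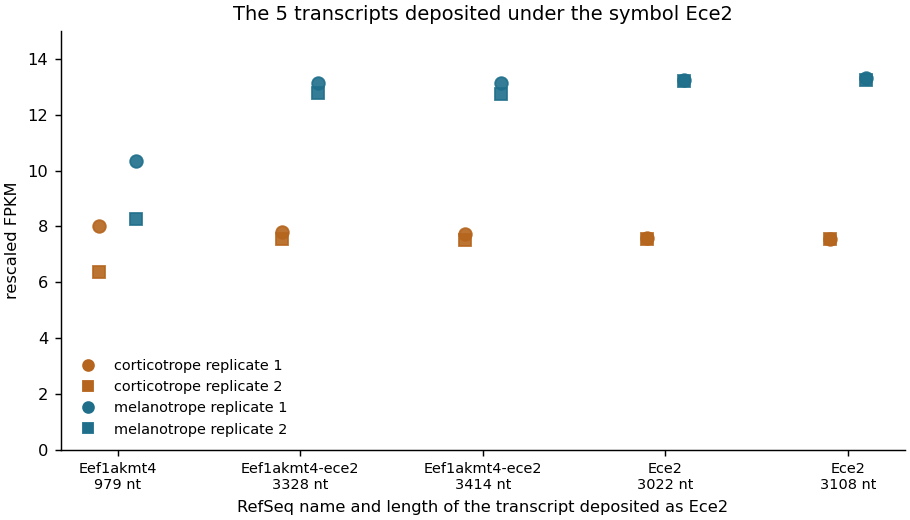
Rescaled FPKM (y axis, from 0) of the 5 transcripts deposited as Ece2, by their RefSeq name and length, with circles for replicate 1 and squares for replicate 2. The 4 rows with Ece2 exons lie between 7.51 and 7.82 in corticotropes and between 12.7 and 13.3 in melanotropes, and the Eef1akmt4 row has the smaller difference.

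Ece1 was 5.69 and 6.68 times Ece2 in corticotropes and 2.35 and 2.60 times in melanotropes, a ratio that no rescaling moves. With the most abundant Ece2 transcript the mean ratio was 6.23 ± 0.580 in corticotropes and 2.41 ± 0.130 in melanotropes. The ranges of the cell types did not overlap for either choice.

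Qpct and Prcp, which act on opposite ends of a peptide, were both lower in melanotropes. Qpct (chromosome 17, 79051906 to 79090243), the secretory glutaminyl cyclase that closes an amino-terminal glutamine to pyroglutamate, stood at 5.53 and 5.36 FPKM in corticotropes and at 2.67 and 3.42 in melanotropes. The difference was well beyond the spread of either group. It fell by 0.68 on the log2 scale (adjusted p = 0.00576, SE 0.11), and all 15 alternatives called it as well (0.000598 to 0.0275). The summed level of genes of other anterior lobe lineages was lower in the same melanotrope libraries (14.5 to 63.6 against 5660 to 5809 FPKM). Their part in the values of Qpct and Prcp was not tested.

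Prcp (chromosome 7, 92875253 to 92934581), a carboxypeptidase that removes the residue after a proline and is known to inactivate α-MSH, stood at 1.78 and 1.91 FPKM in corticotropes and at 0.624 and 0.905 in melanotropes. All 4 values are low, and the melanotrope values are under 1 FPKM. It fell by 0.70 on the log2 scale (SE 0.11, adjusted p = 0.00543), while the means differed 2.42-fold without the pseudocount. With a pseudocount of 0.1 the log2 difference was -1.19 (adjusted p = 0.00649) and with one of 5 it was -0.25 (0.00594; range 0.000510 to 0.0288 over the 13 alternatives that tested it). Without either corticotrope library it missed the expression filter and was not tested.

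Ctsl (chromosome 13, 64363214 to 64370306), cathepsin L, a cysteine protease of lysosomes that has also been placed in secretory granules, stood at 57.7 and 65.9 FPKM in corticotropes and at 71.9 and 84.0 in melanotropes. The groups did not overlap. The log2 difference was 0.33 (adjusted p = 0.0715, SE 0.12). It passed the test without melanotrope replicate 1 (0.44, adjusted p = 0.0473) and was below 0 without rescaling (-0.16, adjusted p = 0.12007, and 0.00149 to 0.306 over the alternatives). An antisense gene, Gm47123, overlaps 1742 bases of its annotated exons and a pseudogene, Gm49230, 395 bases. No strand setting is given in the sources used here, so reads of Ctsl and its antisense partner cannot be told apart.

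Anpep (chromosome 7, 79821803 to 79842352), aminopeptidase N of the cell surface, was the lowest of the 10 genes in both cell types. It stood at 0.254 and 0.269 FPKM in corticotropes and at 0.193 and 0.136 in melanotropes. The spacing of low values implied 121 and 243 reads in corticotropes (95% exact Poisson intervals 100.4 to 144.6 and 213 to 276) and 127 and 88 in melanotropes (106 to 151 and 70.6 to 108). These intervals cover counting error only. The corticotrope values were both higher, and the gene was not tested because no library reached 1 FPKM.

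**Figure D4:**
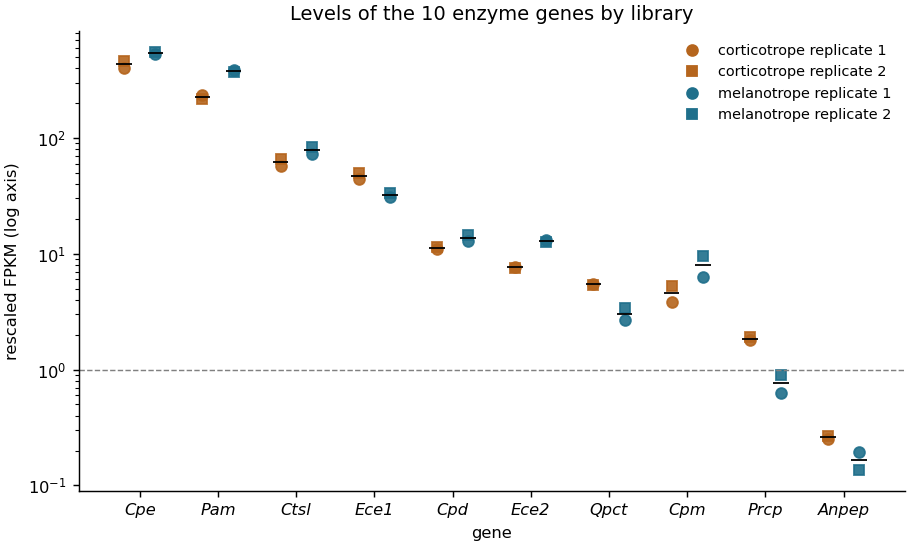
Rescaled FPKM (log axis) of the 10 genes in each library, with circles for replicate 1, squares for replicate 2, black lines for the means and a dashed line at 1 FPKM, the filter. The levels run from 550 for Cpe to 0.136 for Anpep, and the Prcp values of melanotropes and all Anpep values are below the line.

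The order of levels was Cpe, Pam, Ctsl, Ece1, Cpd, Ece2, Qpct, Cpm, Prcp and Anpep in corticotropes, and the libraries of neighbours in this order did not overlap. In melanotropes Cpm stood above Qpct, and the ranges of Cpd (12.97 to 14.5 FPKM) and Ece2 (12.7 to 13.1) overlapped. No other neighbours overlapped there. The change of place between Qpct and Cpm came with values of 5.45 ± 0.121 against 4.54 ± 0.997 in corticotropes and 3.04 ± 0.534 against 7.96 ± 2.37 in melanotropes. By distance over the 4 libraries on the log2(FPKM + 1) scale, the genes nearest to Pam were Wbp5 (0.17), Calm2 (0.26) and Atp5e (0.47), and among those nearest to Cpe were Maged1 (0.19) and Hsp90ab1 (0.24).

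RNA of genes for cofactor supply and for partners of Pam was called in both directions, as was that of all genes. Of 13 tested genes of copper and ascorbate supply, adaptors and Pam-binding proteins, 4 rose and 3 fell, against 18.7% and 17.5% of all genes. The median log2 fold change was 0.16 (0.01 over all genes). Slc23a2, the ascorbate transporter, was at 22.7 ± 1.47 FPKM in corticotropes and 40.6 ± 8.96 in melanotropes (log2 fold change 0.79, adjusted p = 0.00950). Kalrn, a guanine nucleotide exchange factor that binds the Pam tail, was higher at 1.12 ± 0.0899 against 2.77 ± 0.131 FPKM. Uhmk1, a kinase of the Pam tail, was higher at 18.3 ± 0.473 against 24.1 ± 0.671 FPKM (log2 fold change 0.38; -0.09 on the deposited scale). Atp7a, the pump that loads copper into the secretory pathway, was lower at 5.96 ± 0.195 against 4.21 ± 0.204 FPKM, as were Rassf9, which also binds Pam, at 2.49 ± 0.332 against 1.29 ± 0.298 and the adaptor subunit Ap1g1 at 23.8 ± 0.911 against 19.3 ± 0.952 FPKM.

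Several of these calls did not hold in fits with 1 library left out, which call fewer genes in all. Ap1g1 missed the threshold without any 1 of the 4 libraries (adjusted p = 0.0672 to 0.168) and with equal sums other than Pomc (0.1197). Rassf9 missed it without corticotrope replicate 2 (0.0634) or melanotrope replicate 1 (0.0631), Atp7a without melanotrope replicate 1 (0.0713) and Uhmk1 without melanotrope replicate 2 (0.0558). Leaving out corticotrope replicate 2 gave 4 higher and 1 lower, against 3 and 0 without melanotrope replicate 1, 2 and 2 without melanotrope replicate 2, and 2 and 7 on the deposited scale.

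Of 8 tested genes of proprotein convertases, which act before these enzymes, and of their binding proteins, 1 was higher and 3 lower (median log2 fold change 0.16). Over all genes 18.7% were higher and 17.5% lower. Pcsk2, which cuts ACTH, was at 86.3 ± 18.0 against 645 ± 51.4 FPKM, while Pcsk1 was lower at 139 ± 14.7 against 90.3 ± 7.06 and Pcsk6 at 4.72 ± 0.438 against 0.668 ± 0.0336 FPKM, the last passing the filter only through corticotropes. Mbtps1, the site-1 protease, was lower at 54.1 ± 1.54 against 42.2 ± 3.32 FPKM and lost its call with any library left out except melanotrope replicate 2 (adjusted p = 0.0730 to 0.132). Leaving out corticotrope replicate 1 gave 1 higher and 1 lower, and leaving out corticotrope replicate 2 gave 2 and 1. They were 1 and 5 on the deposited scale, and 2 were called higher with a single prior variance, with a median of ratios, with a trimmed mean against the geometric mean library and with equal sums other than Pomc, and 3 with the replicate block. Pcsk1 and Pcsk2 are also among the markers of the cell types above.

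Other carboxypeptidases were mostly low beside Cpe, and 4 of 6 tested were higher and 1 lower in melanotropes, against 18.7% and 17.5% of all genes. Cpa4, a secreted carboxypeptidase, was at 0.689 ± 0.0709 against 4.83 ± 0.545 FPKM and Cpz at 0.444 ± 0.0605 against 1.67 ± 0.1798 FPKM. Of the 4 higher, 3 passed the filter only through melanotropes, so their count is not evidence of a direction, and 1 was called higher without either melanotrope library. Cpxm2, a relative of Cpe without known catalytic activity, was lower at 7.502 ± 2.37 against 2.75 ± 0.909 FPKM. On the deposited scale 3 were higher and 2 lower, and with no filter 6 and 2.

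Among other aminopeptidases 3 of 14 tested rose and 1 fell (median 0.05), against 18.7% and 17.5% of all genes. Enpep, which removes acidic residues, was at 4.16 ± 0.378 against 16.6 ± 4.24 FPKM (log2 fold change 1.75, adjusted p = 0.000686) and Rnpep, which removes basic residues, at 11.2 ± 0.512 against 23.5 ± 1.15. Lta4h, an aminopeptidase that also makes leukotriene B, was called higher at 25.7 ± 0.694 against 30.8 ± 1.09 FPKM, was not called without any 1 of the 4 libraries (adjusted p = 0.104 to 0.206), with a filter on the mean (0.0512) or with a single prior variance (0.0613), and was lower on the deposited scale (-0.22). Aopep, in the table as 2010111I01Rik, was lower at 5.40 ± 0.457 against 3.55 ± 0.0212 FPKM. The counts were 3 and 3 without corticotrope replicate 2, 5 and 2 with the replicate block, and 2 and 10 on the deposited scale.

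Of 8 tested peptidases of proline bonds and dipeptide ends 2 rose and 1 fell (median 0.09), against 18.7% and 17.5% of all genes. Pepd, the dipeptidase of peptides ending in proline, was at 21.8 ± 0.164 against 42.9 ± 1.12 FPKM (log2 fold change 0.95, adjusted p = 0.000354), and Dpp6, a potassium channel subunit without peptidase activity, was lower at 8.17 ± 0.573 against 4.36 ± 1.29. Dpp6 was not called with no filter (adjusted p = 0.0500474). Dpp7 was called higher at 20.7 ± 0.645 against 26.9 ± 3.58 FPKM, but was below 0 on the deposited scale (-0.12) and not called without corticotrope replicate 1 (0.143), corticotrope replicate 2 (0.0696) or melanotrope replicate 2 (0.201), with no filter (0.0824) or with a single prior variance (0.0547). In each of those fits 1 was higher. The deposited scale gave 1 higher and 6 lower.

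Of 6 tested endopeptidases and dipeptidases of small peptides, among them the relatives of Ece1, 2 rose and 1 fell (median 0.12). Over all genes 18.7% rose and 17.5% fell. Mme, neprilysin, was at 1.51 ± 0.00423 against 5.74 ± 0.116 FPKM (log2 fold change 1.43, adjusted p = 0.000137) and Ace, the angiotensin-converting enzyme, at 1.23 ± 0.207 against 2.61 ± 0.1801. Ecel1 was lower at 2.94 ± 0.406 against 0.385 ± 0.00105 FPKM, passed the filter only through corticotropes, and was not tested without either of them, which left 0 lower. On the deposited scale 2 were higher and 3 lower, and with no filter 2 and 2.

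Of 8 tested cathepsins other than Ctsl 2 rose and 2 fell (median 0.07), against 18.7% and 17.5% of all genes. Ctss was at 2.26 ± 0.471 against 6.29 ± 1.40 FPKM and Ctsh at 0.829 ± 0.130 against 2.92 ± 0.0819, the latter passing the filter only through melanotropes. Ctso was lower at 19.9 ± 1.65 against 8.12 ± 1.66 and Ctsz at 35.6 ± 1.53 against 23.5 ± 0.560 FPKM. Macrophages are known for Ctss, and the summed level of the listed macrophage genes was higher in the same melanotrope libraries (17.7 to 22.4 against 6.99 to 9.59 FPKM), with none of them at 0 in all libraries. Their part in the result was not tested. Without either melanotrope library 1 cathepsin was higher and 2 lower, and on the deposited scale 2 were higher and 5 lower.

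Of 5 tested inhibitors 0 rose and 1 fell, against 18.7% and 17.5% of all genes. Cst3, cystatin C, the main secreted inhibitor of cathepsins, was at 294 ± 39.1 against 212 ± 21.5 FPKM (log2 fold change -0.47, adjusted p = 0.0443). It missed the threshold with any library left out except corticotrope replicate 1 (0.0613 to 0.218), with no filter (0.103) or with a trimmed mean against the geometric mean library (0.0533). Without melanotrope replicate 2, and in the last 2 settings, 0 inhibitors fell. On the deposited scale 4 fell, with the replicate block 1 rose and 2 fell, and with equal sums other than Pomc 1 rose and 1 fell.

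**Figure D5:**
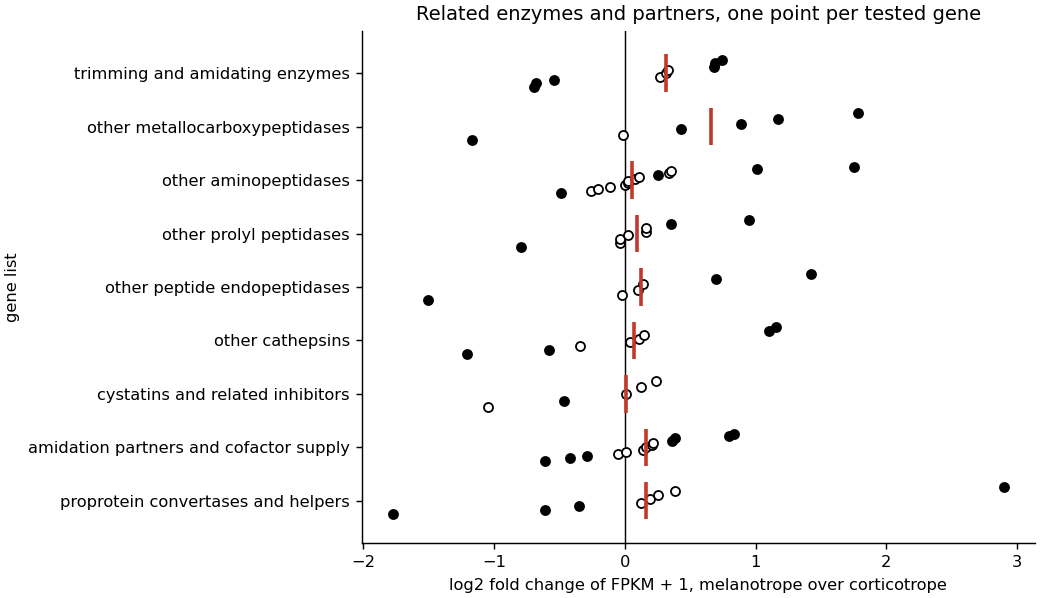
Log2 fold change (x axis, FPKM + 1, melanotrope over corticotrope) of each tested gene of the enzyme family and 8 related lists (y axis), filled where the adjusted p was under 0.05, with a red line at each median. Points lie on both sides of 0 in every list, and on the deposited scale the median of all genes is at -0.42, so that points between 0 and about that distance above it change side there.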

How the data were processed

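FPKM per transcript were deposited by the authors, counted over exons with HOMER on mm10 per the file headers. TopHat and edgeR are also named in the submitters' processing notes. For tool versions and the strand setting, nothing is stated in the sources read. The log2 fold changes and FDR values (adjusted p-values) in the authors' deposited table came from a comparison run on the FPKM table, per the file headers. Libraries were rescaled by an unweighted trimmed mean of log ratios (30% of ratios and 5% of levels trimmed on each side), because Pomc took a different share of each cell type's FPKM. The longest transcript stood for a gene, and genes with at least 1 FPKM in at least 2 libraries were tested on log2(FPKM + 1) by limma (version 3.58.1, R 4.3.3; eBayes with a trend), with Benjamini-Hochberg adjustment over 13043 genes. The residual degrees of freedom were 2. The procedure was tested on simulated data of 12735 genes: it found 80 of 100 genes with a log2 change of 0.5, 100 of 100 with one of 1, and 10 false calls. The simulation drew independent noise with the variances of the fit and changed 200 genes, as many up as down. None of the changed genes came from those of lowest mean level, so the share found does not cover such genes. The simulation had no shift in scale between the cell types and no deviations shared by same-numbered libraries. It therefore cannot test the rescaling, or the rate of false calls where these are present. Named genes of the related lists were those with the smallest adjusted p, up to 3 per direction. Some genes that this rule and the nearest-gene rule (the 3 smallest distances) picked are not reported here. The members and lists were chosen with earlier results of these data known. Promoter windows came from RefSeq on GRCm38.p6.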

Additional observations from a re-analysis of the deposited data

How the results depend on the processing

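On the deposited scale, without rescaling, 9726 genes were called, 939 higher and 8787 lower, with 0 members higher and 42 listed genes lower (13 after rescaling). Cpe (-0.17), Cpd (-0.19) and Ctsl (-0.16), and among other genes Dpp7 (-0.12), Lta4h (-0.22) and Uhmk1 (-0.087), reversed there, and Cpm (0.26), Pam (0.25) and Ece2 (0.25) were not called, with the median of all genes at -0.42. Equal sums other than Pomc gave 6 members higher, with Cpe at 0.37, Cpd at 0.32 and Ctsl at 0.38 now called. Cpm was not called with a pseudocount of 5 (0.43) or no filter (0.68), and the cause was not tested. The most abundant Pomc transcript gave ratios to Cpe of 85.2 and 176 and to Pam of 163 and 250.01 in corticotropes and melanotropes. Leaving out 1 library in turn left 3 in the test and gave 3212 to 3428 genes called (1416 to 2041 higher, 1387 to 1796 lower), 2 to 4 members higher, 10 to 17 listed genes higher, and log2 fold changes of 0.41 to 0.96 for Cpm and 0.22 to 0.44 for Ctsl. In such fits the lone library is assumed to vary like the others. A trimmed mean against the geometric mean library was added after seeing the data. Ece1 and Qpct were called lower under all 15 alternatives.

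The replicate numbers are not known to pair the libraries. With the replicate block 7004 genes were called (3654 higher, 3350 lower) against 4726 without it, and 6 members were higher, with Cpe at 0.32, Cpd at 0.27 and Ctsl at 0.33 now called. Same-numbered libraries deviated together over 13043 genes (correlation 0.526), with 2 pairs only. Total depths are not known, and the reads implied for Anpep, 88 to 243 a library, set its counting error.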
